A study of Mus musculus with 4 samples.

Results

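The genes described here encode the machinery of MHC class I antigen presentation, and were chosen by symbol: H2-K1, H2-D1, B2m, Tap1, Tap2, Tapbp, Psmb8, Psmb9, Psmb10 and Nlrc5. All 10 were found among the 49993 genes with a count in each deposited table, and all 10 passed the filter on low counts. Their RNA was sequenced in bulk from CD11b+ microglia, collected from the brains of 10-month-old mice by magnetic-activated cell sorting. Monocytes, neutrophils and border macrophages of the brain carry CD11b too. Every mouse carried APP/PS1, transgenes that make the brain accumulate amyloid and model Alzheimer's disease. The groups differed at asrij (Ociad1), which was intact in the AD group (APP/PS1+ asrij+/+, n = 2 libraries) and constitutively deleted in the AD/KO group (APP/PS1+ asrij-/-, n = 2 libraries). The labels do not say whether a library came from 1 animal or a pool, or that the 2 libraries of a group came from separate animals, so that p-values measure the spread between these libraries, which may be technical.

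Class I molecules show peptides from a cell's own proteins to CD8 T cells. A polymorphic heavy chain (H2-K1 or H2-D1) pairs with the invariant light chain B2m. Peptides are cut by the proteasome, whose immunoproteasome form carries the subunits Psmb8, Psmb9 and Psmb10, pumped into the endoplasmic reticulum by the Tap1-Tap2 transporter and loaded with the help of tapasin (Tapbp). Nlrc5 is a transactivator of class I promoters, and interferons raise the expression of the whole pathway. In brain, microglia are among the cells that express it, and its level is known to go up in amyloid models.

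Libraries held from 13102622 to 19810076 counts. All 18 microglia markers examined had reads in every library, and their summed level was 24040 and 16880 CPM (read counts scaled to library size and composition) in AD replicates 1 and 2. In AD/KO it was 24850 CPM for replicate 1 and 7428 CPM for replicate 2. Neuron, astrocyte and oligodendrocyte markers were highest in AD/KO replicate 2, at 362%, 373% and 399% of the AD mean, and stood at 115.3%, 146% and 183% of it in AD/KO replicate 1. AD replicate 2 also stood apart in the 10 neutrophil markers, at 4907 CPM against 363 to 571 CPM in the others. Ociad1, the deleted gene, still had 746 and 592 reads in the AD/KO libraries (38.9 and 32.1 CPM) against 691 and 1032 reads in AD (50.2 and 63.4 CPM), so that AD and AD/KO mean the libraries so labelled. Fewer microglia in a library and less class I RNA per microglial cell cannot be told apart in bulk samples.

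Upstream sequences are shown for both heavy chains, B2m and the Tap1-Psmb9 pair, chosen with the group values known. Whether the motifs bear on the differences between the groups was not tested. Each is from RefSeq on GRCm38.p6, 5′ to 3′ on the strand given, and ends at the base before an annotated transcript start. For H2-K1 that start belongs to a transcript shorter than the gene, so the stretch lies within the gene's annotated span. The Tap1-Psmb9 stretch is instead the interval between the starts of these neighbours, which are transcribed away from each other. Capitals mark matches to the motifs described after the sequences.
H2-K1 (chr17:34000348-34000547, minus strand): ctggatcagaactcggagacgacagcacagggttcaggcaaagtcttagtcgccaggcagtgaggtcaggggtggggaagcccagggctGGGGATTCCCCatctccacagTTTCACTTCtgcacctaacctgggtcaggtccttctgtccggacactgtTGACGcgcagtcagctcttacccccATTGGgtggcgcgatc
H2-D1 (chr17:35262894-35263093, plus strand): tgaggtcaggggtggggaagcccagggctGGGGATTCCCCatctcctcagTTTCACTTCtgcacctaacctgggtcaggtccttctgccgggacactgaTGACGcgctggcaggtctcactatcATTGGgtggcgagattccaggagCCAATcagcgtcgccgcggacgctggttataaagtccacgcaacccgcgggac
B2m (chr2:122147487-122147686, plus strand): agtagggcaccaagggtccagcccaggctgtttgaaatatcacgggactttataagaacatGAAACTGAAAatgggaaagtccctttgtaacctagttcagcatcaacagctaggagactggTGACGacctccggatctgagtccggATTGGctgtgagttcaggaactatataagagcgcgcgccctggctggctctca
Psmb9 to Tap1 (chr17:34187331-34187555, plus strand): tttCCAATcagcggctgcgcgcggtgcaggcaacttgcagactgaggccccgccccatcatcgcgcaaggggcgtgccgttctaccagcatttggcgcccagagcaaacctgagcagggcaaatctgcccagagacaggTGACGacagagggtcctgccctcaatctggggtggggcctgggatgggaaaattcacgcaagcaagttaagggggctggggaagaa

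Motifs were searched on both strands of the 300-base promoter windows that RefSeq entries gave for 8 of the 10 members (9 windows, 2 of them overlapping windows of H2-K1). Tap2 and Nlrc5 had no entry. The NF-kB palindrome, GGGGA and TCCCC around any 1 base, was found upstream of H2-K1 and H2-D1 and in 0.0487% of all 32851 windows. The interferon consensus of class I promoters, GAAGTGAAA, was added after the windows were seen. It was found in the same 2 genes and in 0.505% of all windows. B2m held the core of the interferon-stimulated response element (GAAA, 2 bases of any kind and GAAA), which 3.44% of windows held, and the Psmb8 window held the GAS motif TTCNNNGAA, which 8.3% held. TGACG, the core of the X2 box, was found for H2-K1, H2-D1, B2m, Tap1 and Psmb9 (20.8% of windows). CCAAT, the Y box, was found for those 5 and for Tapbp (37.4% of windows). The NF-kB motif GGGANTTCC, held by 1.68% of windows, matched 0 member windows. The Psmb10 window matched none of the motifs searched. The Tap1 and Psmb9 windows cover nearly the same bases, so that their matches are the same ones. The matches of H2-K1 and H2-D1 lie in stretches that resemble each other.

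The first comparison asked whether the class I genes differed between AD/KO and AD. Class I chains and Nlrc5 lay under both AD libraries in each AD/KO library, while the transporter, tapasin and immunoproteasome genes overlapped between the groups. The 4 separate genes were H2-K1, H2-D1, B2m and Nlrc5, 4 of 10 members, against 21.7% of the 21439 genes tested that lay below AD in the same way. All 10 members had a log2 fold change below 0, against 52.8% of all genes. The median of these values was −0.59, and −0.048 for the whole set of tested genes. With edgeR (quasi-likelihood F-test, Benjamini-Hochberg adjusted p from 0.680 to 0.974), 0 of 10 members passed 0.05, and 0% of the tested genes did. Unadjusted, 1072 genes had p under 0.05. Nlrc5 was the 1 member among them, and 2.3% of the tested genes were lower at that level. DESeq2 called 0 of 10 members and 0.42% of all genes. None of the differences below is therefore called as a change.

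**Figure D1:**
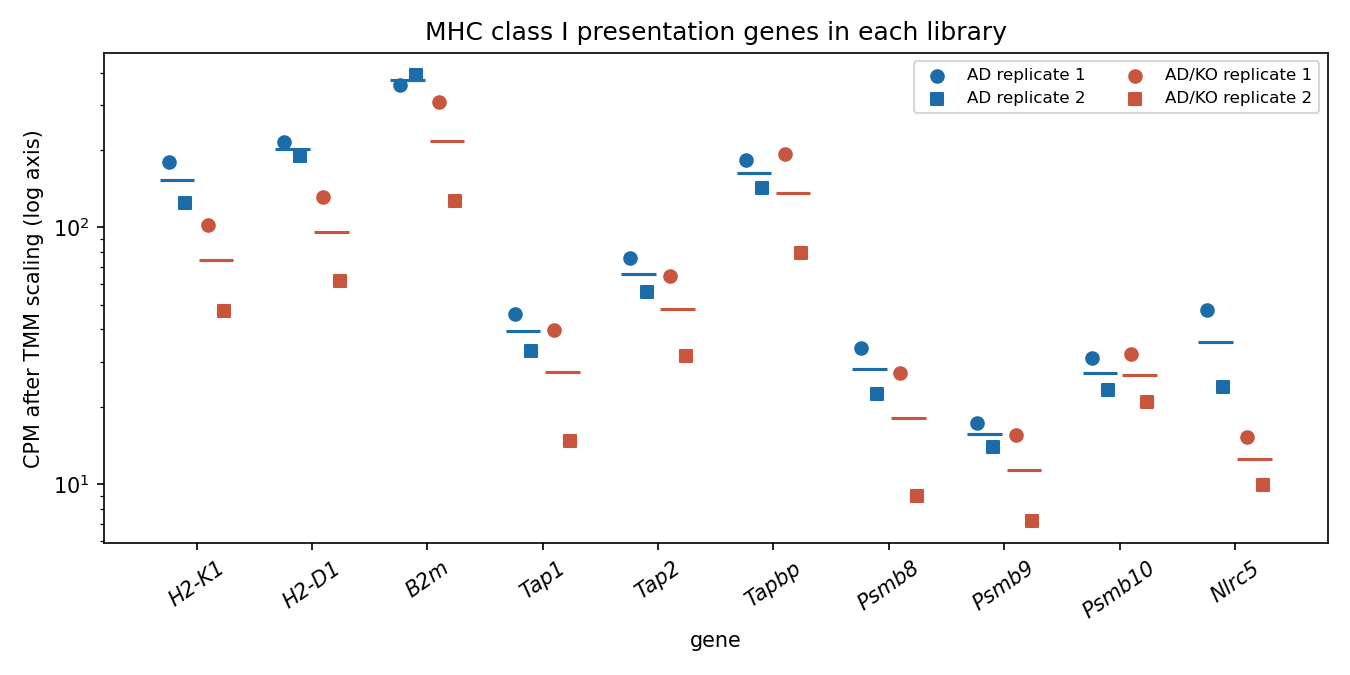
Level of each class I presentation gene in each library, in CPM on a log axis, with points for libraries (circles, replicate 1; squares, replicate 2) and horizontal bars for the mean of the 2 libraries of a group. H2-K1, H2-D1, B2m and Nlrc5 have both AD/KO points below both AD points, and the other 6 genes overlap because AD/KO replicate 1 lies within or above the AD range.

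H2-K1 (gene ID 14972, chromosome 17, 33996012 to 34000619, protein-coding) encodes the K heavy chain. It stood at 179.9 and 124.7 CPM in the AD libraries and at 102 and 47.4 CPM in the AD/KO libraries. AD/KO replicate 1 lay under both AD libraries and AD/KO replicate 2 was lower still, by 2.15-fold. AD averaged 152 ± 39.04 CPM and AD/KO 74.7 ± 38.6 CPM (SD, n = 2 each). The fitted log2 fold change was −1.03 (SE 0.48, edgeR adjusted p = 0.680), and −1.63 or −0.57 without AD/KO replicate 1 or 2.

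H2-D1 (gene ID 14964, chromosome 17, 35263094 to 35267497, protein-coding), the D heavy chain, stood at 215 and 189 CPM in AD and at 130.8 and 61.6 CPM in AD/KO. The gap from AD replicate 2 to AD/KO replicate 1 exceeded that between the AD libraries but not that between the AD/KO libraries. AD averaged 202 ± 18.2 CPM and AD/KO 96.2 ± 48.9 CPM (SD, n = 2 each). The fitted log2 fold change was −1.07 (SE 0.46, edgeR adjusted p = 0.680), and −1.66 or −0.62 without AD/KO replicate 1 or 2. The H2-D1 and H2-K1 transcripts align at 90.6% identity over 1404 bases, and H2-D1 matches H2-Q7 at 96.4% over 280 bases. How reads fitting several class I genes were counted is not given in the sources used here. The ratio of H2-K1 to H2-D1 in reads per kb of transcript was 1.09 and 0.856 in AD and 1.01 and 0.998 in AD/KO, a log2 difference of 0.06 (exact two-sided permutation p = 1.0).

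B2m (gene ID 12010, chromosome 2, 122147687 to 122153082, protein-coding), the light chain shared by all class I molecules, stood at 360.4 and 392 CPM in AD and at 307 and 126 CPM in AD/KO. AD/KO replicate 1 lay just under the AD range and AD/KO replicate 2 far under it. AD averaged 376 ± 21.99 CPM and AD/KO 217 ± 128 CPM (SD, n = 2 each). The fitted log2 fold change was −0.79 (SE 0.53, edgeR adjusted p = 0.680). B2m was the separate gene whose fold change moved most with the library left out, at −1.52 without AD/KO replicate 1 and −0.28 without AD/KO replicate 2.

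Nlrc5 (gene ID 434341, chromosome 8, 94434335 to 94527272, protein-coding), the class I transactivator, had the largest difference of the 10 members. It stood at 47.6 and 23.8 CPM in AD (656 and 388 reads) and at 15.2 and 9.88 CPM in AD/KO (292 and 182 reads). AD replicate 1 was well above the other 3 libraries, and both AD/KO libraries were below AD replicate 2. AD averaged 35.7 ± 16.8 CPM and AD/KO 12.6 ± 3.78 CPM (SD, n = 2 each), 35.1% of the AD level. The log2 fold change was −1.51 (SE 0.47, edgeR unadjusted p = 0.0253 and adjusted p = 0.680). Without AD replicate 1, the highest library, the log2 fold change was −0.93.

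The transport and loading genes did not separate the groups. Tap1 (gene ID 21354, chromosome 17, 34187556 to 34197225, protein-coding), a transporter subunit, stood at 45.9 and 33.1 CPM in AD and at 39.8 and 14.8 CPM in AD/KO. Tap2 (gene ID 21355, chromosome 17, 34204479 to 34216321, protein-coding), its partner, stood at 76.0 and 55.8 CPM in AD and at 64.6 and 31.5 CPM in AD/KO. In both, AD/KO replicate 1 lay between the AD libraries and AD/KO replicate 2 lay below them. Their log2 fold changes were −0.53 (SE 0.54) for Tap1 and −0.45 (SE 0.44) for Tap2, with edgeR adjusted p of 0.728 and 0.720. Without AD/KO replicate 2 they were 0.024 and −0.016. Tapbp (gene ID 21356, chromosome 17, 33919478 to 33929290, protein-coding), the tapasin bridge between the transporter and empty class I molecules, stood at 183 and 142 CPM in AD and at 193 and 79.7 CPM in AD/KO. Here AD/KO replicate 1 was the highest of all 4 libraries, and the log2 fold change was −0.25 (SE 0.51, edgeR adjusted p = 0.850).

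Antisense genes overlap several of these loci. Gm19412 lies opposite 24.9% of the exonic bases of Tapbp, Gm15821 opposite 14.1% of those of Tap2 and Gm20496 opposite 14.7% of those of Psmb8. Tap1 and Psmb9 share 212 exonic bases on opposite strands. Zbtb22 shares 149 exonic bases with Tapbp on the same strand. Gm15821 and Gm20496 have no count in the deposited tables. The library kit keeps strand, but whether counting used it is not given in the sources used here. How far these overlaps changed the counts was not tested.

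The immunoproteasome genes also overlapped between the groups. Psmb8 (gene ID 16913, chromosome 17, 34198195 to 34201454, protein-coding), also known as LMP7, stood at 33.9 and 22.4 CPM in AD and at 27.1 and 9.01 CPM in AD/KO. Psmb9 (gene ID 16912, chromosome 17, 34182030 to 34187330, protein-coding), or LMP2, stood at 17.3 and 13.9 CPM in AD and at 15.5 and 7.16 CPM in AD/KO. For both, AD/KO replicate 1 was inside the AD range and AD/KO replicate 2 was the lowest library. The log2 fold changes were −0.64 (SE 0.60) for Psmb8 and −0.46 (SE 0.49) for Psmb9, with edgeR adjusted p of 0.716 and 0.737. Without AD/KO replicate 2 they were −0.043 and 0.0032. Psmb10 (gene ID 19171, chromosome 8, 105935728 to 105938392, protein-coding), or MECL-1, was the most even member, at 31.1 and 23.2 CPM in AD and at 32.2 and 20.8 CPM in AD/KO. Its AD/KO mean was 97.7% of the AD mean, and its log2 fold change was −0.033 (SE 0.36, edgeR adjusted p = 0.974).

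Psmb9, Tap1, Psmb8 and Tap2 are neighbours on chromosome 17, in that order. The 4 genes had log2 fold changes between −0.64 and −0.45 with a median of −0.50. Of the 45 pairs of members, the nearest profiles over the 4 libraries (Euclidean distance of log2 CPM, each gene centred on its mean) were those of Tap2 and Psmb9 at 0.109 and of Tap1 and Psmb8 at 0.196, and the farthest were those of Psmb10 and Nlrc5 at 1.46. H2-K1 and H2-D1 stood at 0.251. Tap2 and Psmb9 are the outer genes of the 4 neighbours. Of adjacent genes, Psmb9 and Tap1 stood at 0.278 and Psmb8 and Tap2 at 0.4965. Tapbp, which is not among the 4, stood at 0.214 from Psmb9 and at 0.232 from Tap2.

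Each immunoproteasome subunit takes the place of a constitutive catalytic subunit, Psmb8 of Psmb5, Psmb9 of Psmb6 and Psmb10 of Psmb7, so their ratios within a library show the balance of the forms free of depth. In reads per kb of transcript, Psmb8 stood to Psmb5 at 2.08 and 1.04 in AD and at 0.948 and 0.385 in AD/KO. Both AD/KO ratios lay below both AD ratios, the upper one only slightly. Psmb9 to Psmb6 also did not overlap, at 0.455 and 0.334 in AD and at 0.286 and 0.146 in AD/KO. Psmb10 to Psmb7 overlapped, at 0.781 and 0.725 in AD and at 0.761 and 0.588 in AD/KO. The differences on the log2 scale were −1.28 for Psmb8 over Psmb5, −0.93 for Psmb9 over Psmb6 and −0.17 for Psmb10 over Psmb7. The exact two-sided permutation p was 0.333 for the first and second ratio and 0.667 for the third, or 0.5, 0.5 and 0.667 adjusted over the 3. With 2 libraries against 2, 0.333 is the smallest p the design allows. Leaving out 1 library moved the log2 difference of Psmb8 over Psmb5 between −1.93 and −0.64 and that of Psmb9 over Psmb6 between −1.42 and −0.45, lowest without AD/KO replicate 1 and highest without AD/KO replicate 2.

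The denominators themselves differed between the libraries. Psmb5 stood at 9.0 and 11.9 CPM in AD and at 15.8 and 12.9 CPM in AD/KO, and Psmb6 at 22.5 and 24.6 CPM in AD and at 32.1 and 29.0 CPM in AD/KO. Psmb7 overlapped, at 35.2 and 28.3 CPM in AD and at 37.5 and 31.3 CPM in AD/KO. Constitutive subunits are made by all brain cells, and the neuron and astrocyte markers were highest in AD/KO replicate 2, where all 3 ratios were lowest. Psmb5, Psmb6 and Psmb7 stood higher in AD/KO replicate 1 than in AD/KO replicate 2. The part of other brain cells in the ratios was not tested.

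**Figure D2:**
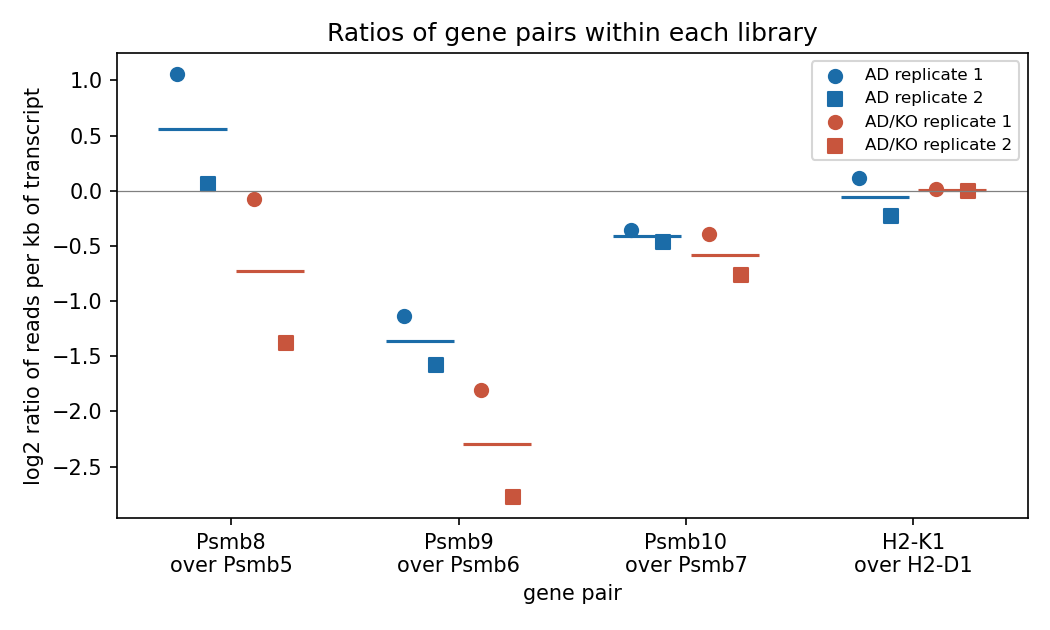
Log2 ratio of reads per kb of transcript for each immunoproteasome gene over its constitutive counterpart and for H2-K1 over H2-D1, with points for libraries and horizontal bars for group means. The Psmb8 and Psmb9 ratios are lower in both AD/KO libraries, and the H2-K1 to H2-D1 ratio lies between −0.23 and 0.12 in all 4.

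The AD/KO libraries differed from each other by a larger factor than the group means did for 9 of the 10 members, all but Nlrc5. AD/KO replicate 1 exceeded AD/KO replicate 2 by 1.54-fold (Nlrc5) to 3.01-fold (Psmb8). Against the AD mean, AD/KO replicate 2 held from 27.6% (Nlrc5) to 76.6% (Psmb10) of the level, beside 36.3% of the microglia markers. All 10 members were below both AD libraries in AD/KO replicate 2, where 46.4% of all genes were. AD/KO replicate 1 held 121% of the summed microglia markers, which did not move together. Tmem119 was at 167%, Cx3cr1 at 112.7% and P2ry12 at 111.5% of the AD mean there, while Itgam was at 93.6% and Ptprc at 60.1%. Among the members in AD/KO replicate 1, H2-D1 was at 64.7%, H2-K1 at 67.0%, B2m at 81.7% and Nlrc5 at 42.6% of the AD mean. The other 6 members were between 96.4% and 119%. The 4 members below both AD libraries in AD/KO replicate 1 were the same 4, where 27.8% of all genes lay there.

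**Figure D3:**
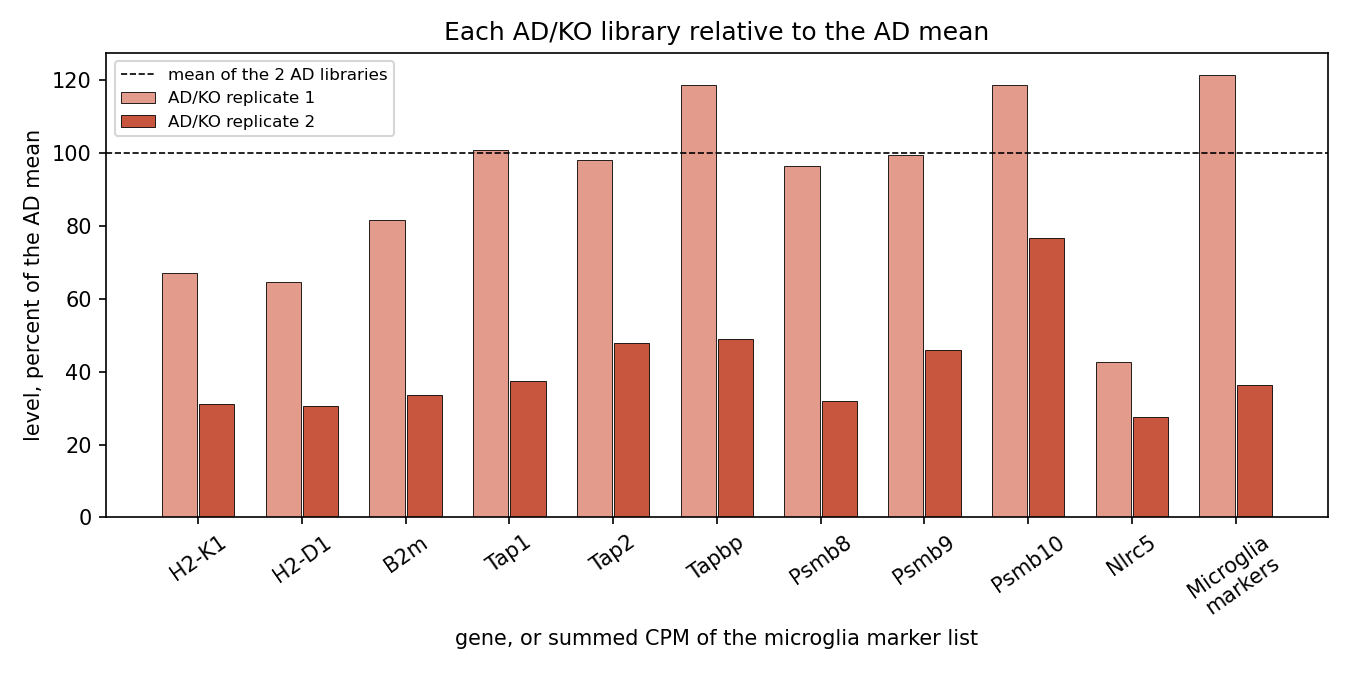
Level of each member, and the summed level of 18 microglia markers, in each AD/KO library as a percent of the mean of the AD libraries (dashed line at 100). In AD/KO replicate 1 the heavy chains, B2m and Nlrc5 lie farthest under the line, Psmb8, Tap2 and Psmb9 lie just under it and microglia markers lie above it, and in AD/KO replicate 2 every member lies under it, as do the microglia markers.

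AD replicate 1 and AD/KO replicate 1 had nearly the same summed level of microglia markers (a ratio of 1.03). They are set side by side here, with 1 library each and so with no test. Single microglia markers did not all match in this pair. Tmem119 stood at 1156 CPM in AD replicate 1 and 1554 CPM in AD/KO replicate 1, Itgam at 1313 and 1012 CPM. In the same order, Ptprc stood at 451.5 and 251.5 CPM, P2ry12 at 1336 and 1323 CPM and Cx3cr1 at 3107 and 3025 CPM. The other cell type markers of this pair also differed. Neuron, astrocyte and oligodendrocyte markers were 2.52-fold, 2.47-fold and 2.38-fold higher in AD/KO replicate 1, and neutrophil markers 1.40-fold higher. Border macrophage markers were lower there, at 69.7 against 134 CPM, as were monocyte markers, at 96.8 against 234 CPM. The part of these cells in the values that follow was not tested. Nlrc5 in AD/KO replicate 1 was at 31.97% of AD replicate 1, H2-K1 at 56.7% and H2-D1 at 60.8%. B2m was at 85.2%, Tap1 at 86.8%, Tap2 at 85.1%, Psmb8 at 80.0% and Psmb9 at 89.6%. Tapbp was at 105% and Psmb10 at 104%. This pair was chosen after the values were seen.

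With the libraries left out in turn, the count of 4 separate members changed. Leaving out AD replicate 2 gave 8 (42.8% of all genes), and leaving out AD replicate 1 gave 4 (29.4%). Leaving out AD/KO replicate 1 gave 10 (46.4% of all genes), and leaving out AD/KO replicate 2 gave 4 (27.8%). By its construction, leaving out a library can only add genes to this count. AD replicate 2, the library with the neutrophil reads, was lower than AD replicate 1 for 9 of the 10 members, B2m being the exception, and the part of neutrophils was not tested.

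The libraries were also scaled so that 12 homeostatic microglia genes had the same mean level in all 4. Whether a microglial cell holds the same level of these genes in both groups was not tested. This scaling moved the all-gene median of the log2 fold changes from −0.048 to 0.85, and that of the members from −0.59 to −0.049. Among the members, only the chains, Nlrc5 and Psmb8 stayed below 0, at −0.37 for H2-K1, −0.44 for H2-D1, −0.24 for B2m, −0.67 for Nlrc5 and −0.12 for Psmb8. The other 5 members had values above 0, from 0.022 (Tap1) to 0.76 (Psmb10). That left 5 of 10 members below 0, beside 3739 of the 21439 genes tested. On this scale 1 member, H2-K1, remained lower in both AD/KO libraries, against 6.22% of all genes, and 2 members, Tapbp and Psmb10, were higher in both, against 9.71% of all genes. For Nlrc5, the scaled level was 31.7 and 22.1 in AD and 10.4 and 23.4 in AD/KO, so that AD/KO replicate 2 fell within the AD range.

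**Figure D4:**
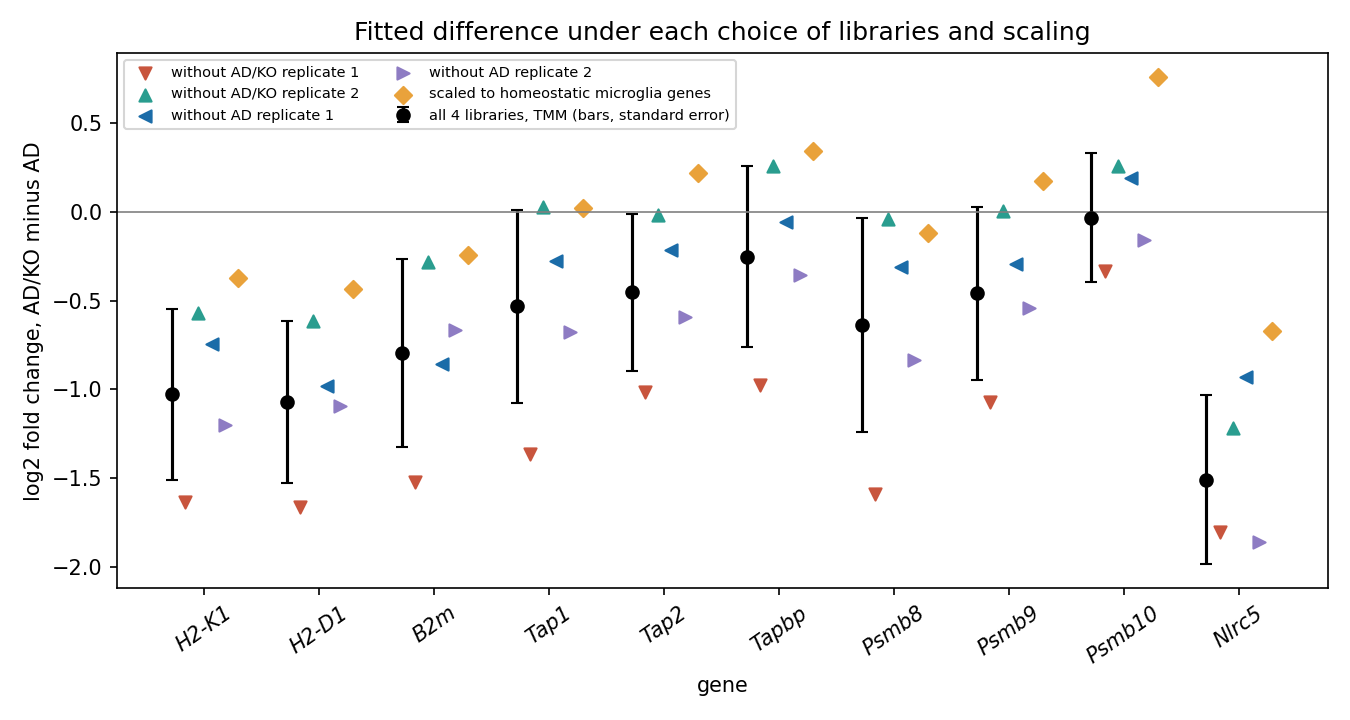
Fitted log2 fold change of AD/KO against AD for each member with all libraries (black, with standard error), with each library left out, and with scaling to homeostatic microglia genes. Nlrc5, H2-K1, H2-D1, B2m and Psmb8 are below 0 under every setting drawn, while Tap1, Tapbp, Psmb9 and Psmb10 lie above 0 without AD/KO replicate 2.

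Per kb of the longest protein-coding transcript, B2m was the most abundant member in AD at 437 ± 25.6 CPM per kb (SD, n = 2). H2-D1 at 96.2 ± 8.68 and H2-K1 at 94.1 ± 24.1 CPM per kb followed and overlapped each other. Tapbp came next at 56.0 ± 10.0 CPM per kb, apart from its neighbours in the order. Psmb10 (20.7 ± 4.26), Tap2 (19.1 ± 4.16), Psmb8 (17.3 ± 5.004), Tap1 (13.4 ± 3.06) and Psmb9 (11.6 ± 1.81 CPM per kb) each overlapped the next. Nlrc5 was the lowest at 4.72 ± 2.22 CPM per kb and did not overlap Psmb9. In AD/KO, B2m at 252 ± 149 and Nlrc5 at 1.66 ± 0.499 CPM per kb kept these ends of the order, while Tapbp at 47.0 ± 27.6 CPM per kb overlapped H2-K1 at 46.1 ± 23.9 and came to the level of both heavy chains. The deposited line for Bag6, a gene of the same chromosome 17 region, named an alternate contig of that chromosome. How reads that fit both copies of a region were counted is not given in the sources used here, and its part in the levels of the chromosome 17 members was not tested.

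The rest of the class I pathway was examined in 5 further lists. Among them, 0 of 61 genes tested passed the threshold by edgeR or by DESeq2, and 0 had an unadjusted p under 0.05. Of 17 other class I and class I-like chains, 14 were tested and all 14 had log2 fold changes below 0 (median −0.81), and 7 were lower in both AD/KO libraries, where 21.7% of all genes were. With homeostatic scaling 7 of the 14 had values below 0, as did 3739 of the 21439 genes tested. On that scale 2 were lower in both, where 6.22% of all genes were. H2-Q6, a nonclassical chain of the Q region, had 88 and 41 reads in AD and 28 and 6 reads in AD/KO (log2 fold change −2.30, SE 0.95). H2-Q7 had 38 and 26 reads in AD and 12 and 16 reads in AD/KO (−1.53, SE 0.65). H2-Q4 stood at 33.8 and 20.7 CPM in AD and at 19.9 and 7.54 CPM in AD/KO. H2-M3, which presents formylated peptides, stood at 27.2 and 15.5 CPM in AD and at 15.2 and 6.08 CPM in AD/KO. These genes resemble each other in sequence, and their counts are uncertain to that extent.

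Of the 6 loading chaperones and trimming peptidases, all 6 had values below 0, with a median of −0.43 that ran from −0.79 without AD/KO replicate 1 to −0.11 without AD/KO replicate 2. In both AD/KO libraries 2 were lower, beside 21.7% of all genes. These were Pdia3, the disulfide isomerase of the loading complex, at 299 and 252 CPM in AD and 241 and 112 CPM in AD/KO, and the endosomal aminopeptidase Lnpep, at 263 and 196 CPM in AD and 174 and 114.7 CPM in AD/KO. Erap1, the peptide-trimming aminopeptidase of the endoplasmic reticulum, overlapped at 68.5 and 46.7 CPM in AD and 52.1 and 20.8 CPM in AD/KO. The chaperone Canx overlapped as well, at 537 and 466 CPM in AD and 466 and 396 CPM in AD/KO.

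The constitutive 20S proteasome had 5 genes above and 9 below 0 among its 14 (median −0.054). Psmb4, Psmb5 and Psmb6 were higher in both AD/KO libraries (log2 fold changes 0.35, 0.46 and 0.37), where 20.3% of all genes were. The structural subunits Psma1, Psma4 and Psma5 were lower in both, where 21.7% of all genes were. Psma1 stood at 28.4 and 30.1 CPM in AD and 27.1 and 18.8 CPM in AD/KO. Among 7 activator and assembly genes the median was −0.29. The interferon-induced activator subunits Psme1 and Psme2 had values of −0.35 (SE 0.36) and −0.29 (SE 0.36). The nuclear activators were at −0.52 (SE 0.31) for Psme4 and 0.28 (SE 0.32) for Psme3.

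Of the 20 regulators of class I promoters and interferon signalling, 17 had values below 0 and 3 above, with a median of −0.39, and 4 were lower in both AD/KO libraries, a share near the 21.7% of all genes. Irf9, an interferon regulatory factor, stood at 59.5 and 43.8 CPM in AD and at 42.2 and 27.2 CPM in AD/KO. Creb1, which binds the X2 box, stood at 105 and 78.7 CPM in AD and at 69.8 and 48.3 CPM in AD/KO. Rfxank, a subunit of the RFX complex that binds class I and class II promoters, went the other way, at 14.2 and 14.1 CPM in AD and at 21.1 and 19.8 CPM in AD/KO (log2 fold change 0.53, SE 0.30).

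The genes whose profile over the 4 libraries was nearest to the mean profile of the 10 members were Gdpd3, Tmc6, Zdhhc20, Birc3 and Ddx58, by the distance used above, among 11297 other genes with a mean of at least 10 CPM. Their distances were 0.0246, 0.0355, 0.0393, 0.0474 and 0.0495. Gdpd3, the nearest, stood at 20.8 and 15.5 CPM in AD and at 15.2 and 7.16 CPM in AD/KO. Tmc6 stood at 89.7 and 67.1 CPM in AD and at 67.8 and 31.85 CPM in AD/KO. Zdhhc20 stood at 100.2 and 76.8 CPM in AD and at 74.8 and 34.2 CPM in AD/KO. Ddx58, the cytosolic RNA sensor RIG-I, stood at 43.3 and 33.4 CPM in AD and at 31.96 and 14.98 CPM in AD/KO. Birc3, an inhibitor of apoptosis, stood at 52.8 and 38.8 CPM in AD and at 39.7 and 17.5 CPM in AD/KO. With 4 libraries such likeness is a description of these libraries only.

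Class I is also expressed outside microglia. The 10 endothelial markers summed to 49.5 and 63.8 CPM in AD and to 48.9 and 79.7 CPM in AD/KO. The 12 T and NK cell markers summed to 2.25 and 5.47 CPM in AD and to 2.61 and 3.36 CPM in AD/KO, with from 2 to 7 of them at 0 reads in a library. Cd3e, a defining T cell gene, had 0 reads in both AD libraries, while AD/KO replicate 1 had 1 read and AD/KO replicate 2 had 2. Cd8a, from the same list, had 1 and 3 reads in AD and 6 and 3 reads in AD/KO. These counts are too few to compare the groups. Border macrophage markers summed to 134 and 102 CPM in AD and to 69.7 and 60.0 CPM in AD/KO, and monocyte markers to 234 and 609 CPM in AD and to 96.8 and 142 CPM in AD/KO. B cell markers summed to 14.5 and 14.0 CPM in AD and to 10.3 and 6.19 CPM in AD/KO. These 3 lists were thus higher in AD, as were the class I chains and Nlrc5, and their part in those differences was not tested.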

How the data were processed

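Counts per gene symbol were deposited by the authors as 1 table per library, whole numbers that were not normalized. Per the submitters' processing notes, FastQC, HISAT2, SAMtools, featureCounts from Subread and DESeq2 1.30.0 were used on mm10. Settings are not given in the sources used here. Per the labels' protocols, RNA was extracted with TRIzol, depleted of ribosomal RNA and made into stranded libraries. In each table, 11 broken lines held no count and were left out. The number of columns left without a sample was 0.

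Differential expression was tested over all 4 libraries with edgeR 4.0.16 in R 4.3.3 (TMM scaling, quasi-likelihood F-test without covariates). Low counts were filtered by filterByExpr (minimum count 10, minimum total 15). The 21439 tested genes together entered the Benjamini-Hochberg adjustment. SE is the fold change on the log2 scale over the root of F. The procedure was tested on simulated data with changes larger than that of any member. How it performs at changes of the size seen here was not tested. The alternatives were DESeq2 1.42.0 size factors and test, other filters on low counts, edgeR's adjusted quasi-likelihood, a term for the replicate number, scaling to homeostatic microglia genes, and leaving out each library. Reads carry no molecular identifiers. Transcript lengths and overlaps came from GENCODE M21 on GRCm38, and coordinates and promoters from RefSeq for GRCm38.p6. Identity was searched with BLAST 2.17.0 (at least 95% over at least 100 bases, except between H2-K1 and H2-D1).

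The members and lists were chosen with earlier results of these data known. All members and Ociad1 were named. From each further list, the 4 genes with the smallest p were named (1 of them is not reported here), as were the constitutive counterparts Psmb5, Psmb6 and Psmb7 and the 5 genes nearest in profile. Cd3e, Cd8a, Bag6, Psma4, Psma5 and the microglia markers Tmem119, Cx3cr1, P2ry12, Itgam and Ptprc were named after their values were seen.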

Additional observations from a re-analysis of the deposited data

How the results depend on the processing

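Of 110 member fold changes under alternatives, 95 moved across neither 0 nor the threshold, 12 changed direction (5 of them with a library left out) and 3 passed the threshold. Those 3 came with the replicate number as a term (replicate block): H2-K1 (log2 fold change −1.11, adjusted p = 0.0108), H2-D1 (−1.17, 0.0182) and Nlrc5 (−1.46, 0.00334), in edgeR's quasi-likelihood fit. With that block 4333 genes (20.2%) were called. The labels do not say what a number shares, and deviations of same-numbered libraries correlated at 0.68 across genes, so the block values are not read as results. DESeq2 called 90 genes. With every library kept, homeostatic scaling changed the direction of Tap1 (0.022), Tap2 (0.21), Tapbp (0.34), Psmb9 (0.17) and Psmb10 (0.76). Psmb10 also changed to 0.0039 with DESeq2 size factors and 0.0040 with its test. Ociad1, which is not a member, changed to 0.16 with homeostatic scaling. That scaling took the further lists to medians of 0.0059 (other chains), 0.33 (loading), 0.81 (20S proteasome), 0.48 (activator and assembly) and 0.37 (regulators), and the count of separate members to 1. The cause was not tested.

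Leaving out 1 library gave from 0 to 524 called genes and from 4 to 10 separate members. The ranges of log2 fold change were −1.37 to 0.024 (Tap1), −1.01 to −0.016 (Tap2), −1.59 to −0.043 (Psmb8), −0.97 to 0.26 (Tapbp), −1.07 to 0.0032 (Psmb9), −0.33 to 0.26 (Psmb10) and −1.44 to −0.029 for the member median. They were −1.09 to −0.36 for other chains, −0.79 to −0.11 for loading, −0.12 to 0.080 for the 20S proteasome, −0.61 to 0.0088 for activator and assembly and −0.77 to −0.044 for regulators. For ratios they were −0.36 to 0.015 (Psmb10 over Psmb7) and −0.11 to 0.23 (H2-K1 over H2-D1). The lowest of these values came without AD/KO replicate 1 and the highest without AD/KO replicate 2, except for the counts, the highest of other chains (without AD replicate 1) and H2-K1 over H2-D1. The separate-member counts were added after the data were seen.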
